A study of Mus musculus with 6 samples.

Results

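The retinoic acid receptor family of the mouse comprises 6 genes, Rara, Rarb and Rarg (the RAR genes) and Rxra, Rxrb and Rxrg (the RXR genes). These were found by their Entrez Gene identifiers among the 20007 gene identifiers of a bulk RNA sequencing series, and all 6 were present. All cells came from KM mice, and the 6 libraries, 2 for each of 3 groups, were read on a BGISEQ-500 sequencer. CiSCs were Sertoli-like cells obtained by exposing passaged embryonic fibroblasts to small-molecule compounds that the labels do not name, so whether a retinoid was among them is not known here. MSCs were mouse Sertoli cells, which support germ cells in the seminiferous tubule, taken from testis tissue at postnatal day 60 and plated in culture. MEFs were embryonic fibroblasts from embryos labelled as 13.5 days post coitum, the same source as the CiSCs. The labels give no passaged fibroblasts that were kept free of the compounds, so effects of passaging and of the compounds cannot be told apart. The series was made to compare the expression profile of CiSCs with that of Sertoli cells.

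RARs are nuclear receptors for all-trans retinoic acid, the active form of vitamin A. They bind DNA as heterodimers with RXRs at direct repeats of a short motif in target genes. Without ligand the pair recruits corepressors, and with ligand it recruits coactivators, so target transcription follows the supply of retinoic acid. RXRs also pair with the thyroid hormone, vitamin D, PPAR and liver X receptors. In the testis, retinoic acid drives spermatogonia into differentiation, and male mice without Rara are sterile. Rarb is itself a classical target of retinoic acid.

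A direct repeat of the kind bound by RAR and RXR pairs lies just before the start of Rarb. The RefSeq promoter window of Rarb (assembly GRCm38.p6) is on the minus strand of chromosome 14, and its 250 bases upstream of the start are chr14:16575477-16575726. They are shown 5′ to 3′ because Rarb had the largest change of the family, with the direct repeat and its spacer in capitals.
Rarb upstream window: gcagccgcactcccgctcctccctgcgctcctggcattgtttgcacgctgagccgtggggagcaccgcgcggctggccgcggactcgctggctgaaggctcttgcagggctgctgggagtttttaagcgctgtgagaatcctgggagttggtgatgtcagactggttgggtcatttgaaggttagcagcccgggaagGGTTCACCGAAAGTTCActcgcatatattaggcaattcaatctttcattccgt

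The repeat spans positions -53 to -37 relative to the start. It was found by searching both strands of windows reaching from 250 bases before to 50 after each start for GNTCANNNNNNGNTCA, a direct repeat with a spacer of 5 bases. Of 32851 windows of all genes, 0.861% held a match. The 13 windows of the 6 receptor genes had 1 match, that of Rarb, and none for repeats with spacers of 2 bases (GNTCANNNGNTCA, 1.12% of all windows) or 1 base (GNTCANNGNTCA, 1.26%). Among 16 retinoic acid target genes listed for comparison, 11 had windows, and Cyp26a1, which encodes a retinoic acid-degrading enzyme, was the 1 gene with a match. It lies on the strand opposite to the gene. Both repeats are shown with their flanks for comparison, the copies of the repeat in capitals and the spacer in lower case.
Rarb DR5 match (chr14:16575506-16575535, minus strand): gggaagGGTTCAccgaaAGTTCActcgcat
Cyp26a1 DR5 match (chr19:37697769-37697798, minus strand): caaattAGTTCAcccaaAGTTCAtctttaa
Both second copies read the same 6 letters. Such a match describes the letters of the window and does not show that a receptor was bound in these cells.

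Each library held 19294671 to 20418587 expected counts, so that 1 read corresponded to 0.0468 to 0.0543 CPM. CPM is the read count scaled to a common library total, here after adjustment by the trimmed mean of M values, and it is not corrected for gene length. Group values are means ± SD of 2 libraries. Of the 20007 identifiers, 15272 had enough counts to be tested. Adjusted p-values (Benjamini-Hochberg, over all of these, threshold 0.05) are those of the quasi-likelihood test in edgeR, and log2 fold changes carry their standard error. The labels leave unstated if the replicate libraries within a group stem from different cultures or mice, so p-values measure only the spread between these libraries, which may be technical. Replicates differed by more than 2-fold at 477 genes in CiSCs, 415 in MSCs and 1416 in MEFs. The summed level of 10 Sertoli markers was 4120 to 4850 CPM in CiSCs, 6020 to 8910 CPM in MSCs and 93.6 to 104 CPM in MEFs. Of the 9 tested, 3 (Clu, Wt1 and Cldn11) were higher and 6 did not pass in CiSCs against MEFs, and 8 were lower in CiSCs against MSCs. Over all tested genes 19.6% were higher in the former comparison and 25.1% lower in the latter. Clu made up most of the CiSC sum, with means of 4377 CPM in CiSCs, 6191 CPM in MSCs and 5.77 CPM in MEFs, while Gata4 averaged 0.0945 CPM in CiSCs, 252 CPM in MSCs and 0.154 CPM in MEFs. The summed level of 10 macrophage markers ranged from 14.5 to 20.3 CPM in CiSCs, from 617 to 634 CPM in MSCs and from 4560 to 6420 CPM in MEFs. MSC libraries also held some Leydig cell markers (7 genes, summed level 1360 to 1390 CPM), against 2.57 to 3.72 CPM in CiSCs and 2.39 to 2.43 CPM in MEFs. Of the 7, 4 averaged 10 CPM or more in MSCs, led by Cyp11a1 at 783 CPM and Star at 425 CPM. Over both MSC libraries Cyp17a1 had 1 read, Lhcgr 3 and Hsd17b3 0. Summed, 8 fibroblast markers reached 26700 to 27000 CPM in CiSCs, 38200 to 41000 CPM in MSCs and 18700 to 19900 CPM in MEFs. Of the 8, 4 were higher and 1 lower in CiSCs against MEFs. In MSCs against MEFs 3 were higher and 2 lower, and in CiSCs against MSCs 4 were higher and 2 lower. The part of fibroblasts in the levels of the receptor genes was not tested. Fewer cells of a type and less RNA per cell cannot be told apart in such bulk samples.

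In CiSCs against MEFs, all 3 RAR genes rose, whereas the 2 RXR genes that could be tested did not pass. Rarb rose by far the most, to a level of 104 CPM. Rara and Rarg rose by 2.23-fold and 2.20-fold. In MSCs against MEFs, Rara and Rarb rose and Rarg did not pass. In CiSCs against MSCs, Rarb and Rarg were higher and Rara did not pass. Of the 5 tested members, 3 were thus higher in CiSCs against MEFs, where 40.9% of all tested genes passed (19.6% higher and 21.3% lower). Of the same 5, 2 were higher in MSCs against MEFs, where 42.5% passed (22.5% higher, 20% lower). In CiSCs against MSCs 2 were higher, where 42.8% passed (17.7% higher, 25.1% lower). With 6 members, these counts say little against such backgrounds, and the values of the single genes carry the description. The comparisons share their libraries, so they are not independent of each other.

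**Figure D1:**
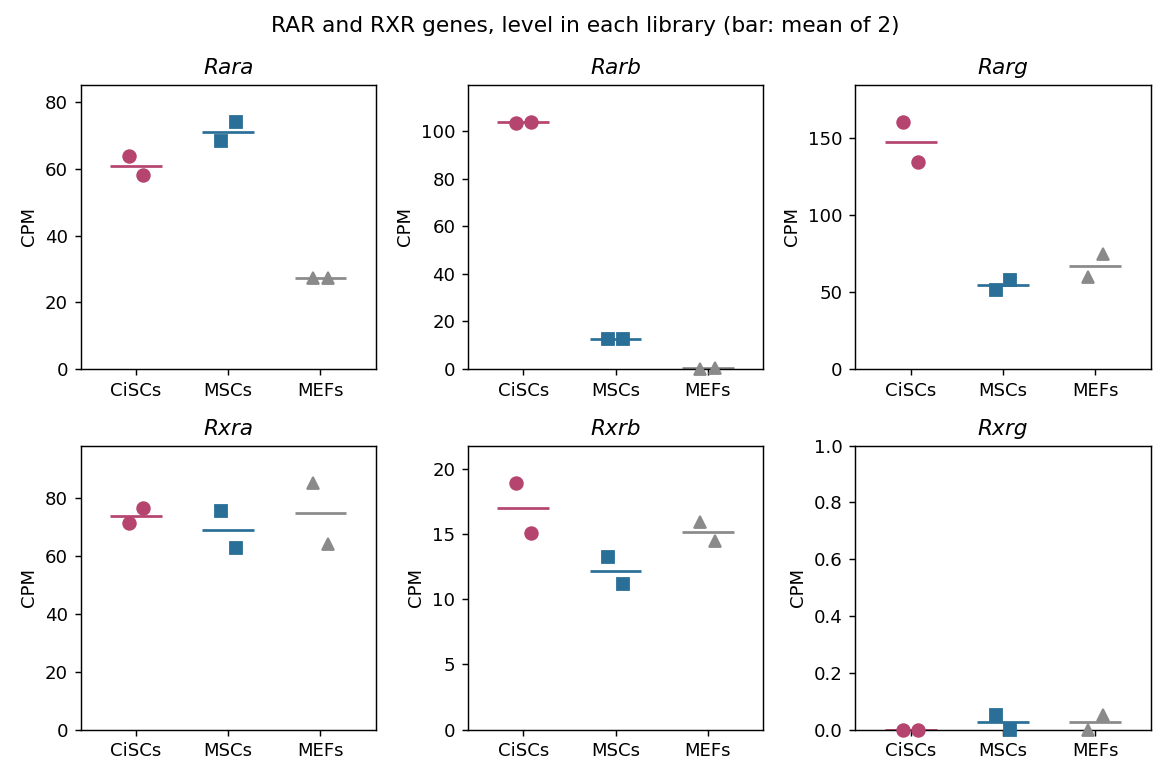
Level of the 6 receptor genes in each of the 6 libraries, in CPM on linear axes from 0, with points for libraries and bars for the mean of the 2 libraries of a group. Rarb stands at 104 CPM in both CiSC libraries and near 0 in both MEF libraries, while Rxra overlaps between the groups.

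Rarb (Entrez Gene 218772) encodes retinoic acid receptor beta. Its level was 104 and 104 CPM in the CiSC libraries, 12.6 and 12.6 CPM in the MSC libraries and 0.101 and 0.260 CPM in the MEF libraries. The groups did not overlap, and replicates lay close together except in MEFs, where the level rested on 1.87 and 5.3 expected reads. The log2 fold change was 9.13 ± 0.27 in CiSCs against MEFs (adjusted p = 1.49e-05, edgeR). Only 19 tested genes had a larger log2 fold change in this comparison. Taken from summed reads, 4397 in CiSCs and 7 in MEFs, the ratio was 579 with an exact binomial 95% interval from 281 to 1440, which covers counting error only. In MSCs against MEFs the log2 fold change was 6.08 ± 0.28 (adjusted p = 2.47e-05, edgeR), or 67.7-fold, and the ratio of reads was 70.1 with an exact binomial interval from 33.7 to 175. Both comparisons with MEFs depended in size on the MEF library. Without the first and without the second MEF library the log2 fold change was 8.58 and 9.92 in CiSCs against MEFs, and 5.53 and 6.87 in MSCs against MEFs. CiSCs stood 8.26-fold above MSCs, which is 3.05 ± 0.17 on the log2 scale (adjusted p = 4.11e-05, edgeR). The CiSC level lay above that of both Sertoli cell libraries.

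Exons of Rarb share 1793 bases with Top2b, a DNA topoisomerase gene on the opposite strand, in the GENCODE M21 annotation, and 227 bases with Gm48162, also on the opposite strand, which was not analysed here. The strand of the libraries is not given in the sources used here, so reads of that stretch cannot be told apart. Top2b had 186 and 187 CPM in CiSCs, 139 and 127 CPM in MSCs and 150 and 84.6 CPM in MEFs, and did not pass in CiSCs against MEFs (log2 fold change 0.67 ± 0.26, adjusted p = 0.0817, edgeR). In the same MEF libraries Rarb was near 0, at the reads given above.

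Rara (Entrez Gene 19401) encodes retinoic acid receptor alpha. It was at 63.7 and 58.3 CPM in the CiSC libraries, 68.3 and 74.1 CPM in the MSC libraries and 27.2 and 27.4 CPM in the MEF libraries. Both CiSC and both MSC libraries were above both MEF libraries. The log2 fold change was 1.16 ± 0.13 in CiSCs against MEFs (adjusted p = 0.000797, edgeR). MSCs against MEFs gave 1.38 ± 0.13 (adjusted p = 0.000364, edgeR). CiSCs against MSCs gave -0.22 ± 0.13, with a 95% interval from -0.532 to 0.0872 (adjusted p = 0.214, edgeR), although the libraries of these groups did not overlap.

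Rarg (Entrez Gene 19411) encodes retinoic acid receptor gamma, a receptor widely found in embryonic mesenchyme. Its level was 161 and 135 CPM in the CiSC libraries, 51.5 and 58.2 CPM in the MSC libraries and 59.7 and 74.7 CPM in the MEF libraries. CiSC libraries were above all others. The log2 fold change was 1.14 ± 0.17 in CiSCs against MEFs (adjusted p = 0.00264, edgeR) and 1.43 ± 0.17 in CiSCs against MSCs (adjusted p = 0.000836, edgeR). MSCs against MEFs gave -0.29 ± 0.17 (adjusted p = 0.207, edgeR). Without the first MEF library the last comparison passed, at -0.48 (adjusted p = 0.0170, edgeR). Over all alternatives tried its adjusted p ranged from 0.017 to 0.577.

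Rxra (Entrez Gene 20181), which encodes the most widely used RXR partner, was at 71.6 and 76.4 CPM in the CiSC libraries, 75.5 and 62.7 CPM in the MSC libraries and 85.3 and 64.1 CPM in the MEF libraries. All groups overlapped. In CiSCs against MEFs the log2 fold change was -0.01 ± 0.18, with a 95% interval from -0.450 to 0.423 (adjusted p = 0.962, edgeR). The interval was -0.549 to 0.325 in MSCs against MEFs and -0.338 to 0.535 in CiSCs against MSCs. Differences within these intervals are not excluded.

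Rxrb (Entrez Gene 20182) had 18.9 and 15.1 CPM in the CiSC libraries, 13.2 and 11.1 CPM in the MSC libraries and 15.9 and 14.5 CPM in the MEF libraries. It did not pass in CiSCs against MEFs (0.16 ± 0.19, interval -0.284 to 0.608, adjusted p = 0.514, edgeR). In CiSCs against MSCs, where the libraries did not overlap, the log2 fold change was 0.48 ± 0.19 (adjusted p = 0.0817, edgeR). That comparison passed without the first MEF library (0.48, adjusted p = 0.0288, edgeR), without the second (0.48, adjusted p = 0.0301, edgeR) and with only CiSCs and MSCs in the fit (0.50, adjusted p = 0.0245, edgeR), and over all alternatives its adjusted p ranged from 0.0245 to 0.393. MSCs against MEFs gave -0.32 ± 0.19 (adjusted p = 0.214, edgeR).

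Rxrg (Entrez Gene 20183), an RXR known mainly from muscle and brain, was near the detection limit and was not tested. It had 0 reads in both CiSC libraries, which allows up to 0.0709 CPM over the group. One MSC library had 0.95 expected reads and the other 0, and the MEF libraries had 0 and 1. No fold change is given for it.

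**Figure D2:**
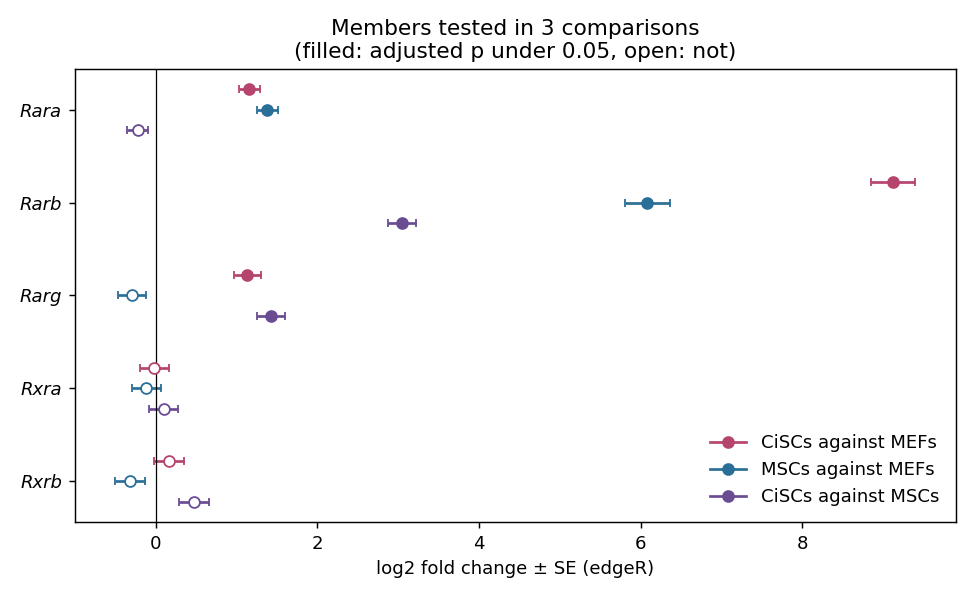
Log2 fold change ± standard error of the 5 tested receptor genes in the 3 comparisons, from edgeR's fit to all 6 libraries, with filled points for an adjusted p under 0.05. Rarb lies at 9.13 in CiSCs against MEFs, while all Rxra and Rxrb points are open.

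Macrophage markers moved along with all 3 comparisons. All 10 tested macrophage markers were lower in CiSCs against MEFs, lower in MSCs against MEFs and lower in CiSCs against MSCs, with summed levels as given above. Over all tested genes 21.3%, 20% and 25.1% were lower in these comparisons. The part of macrophages in the differences of the RAR genes was not tested. For Rarb, the MEF libraries, with the highest macrophage marker level, had 7 reads in all.

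To set the receptor genes against each other, CPM values were divided by the merged length of the exons of their protein-coding transcripts (2.297 to 5.18 kb). On this scale the highest level in CiSCs was that of Rarg, at 38.5 ± 4.77 CPM per kb. It was followed by Rarb at 26.4 ± 0.0538, by Rara at 14.3 ± 0.900 and Rxra at 14.3 ± 0.666, which overlapped, and by Rxrb at 5.88 ± 0.949. In MSCs, Rara led at 16.6 ± 0.963 CPM per kb, ahead of Rarg at 14.3 ± 1.23 and Rxra at 13.3 ± 1.74, the last pair overlapping. Rxrb was at 4.22 ± 0.514 and Rarb at 3.19 ± 0.00897. In MEFs, Rarg at 17.5 ± 2.77 CPM per kb and Rxra at 14.4 ± 2.90 overlapped, and Rara at 6.38 ± 0.0297, Rxrb at 5.26 ± 0.362 and Rarb at 0.0458 ± 0.0285 followed. With the length of the longest coding transcript in place of merged exons, Rara and Rxra in CiSCs stood at 18.0 ± 1.14 and 15.1 ± 0.704 CPM per kb and no longer overlapped. Nor did Rarg and Rxra on that scale, at 18.6 ± 1.59 and 14.1 ± 1.84 CPM per kb in MSCs and at 22.8 ± 3.60 and 15.2 ± 3.06 CPM per kb in MEFs.

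**Figure D3:**
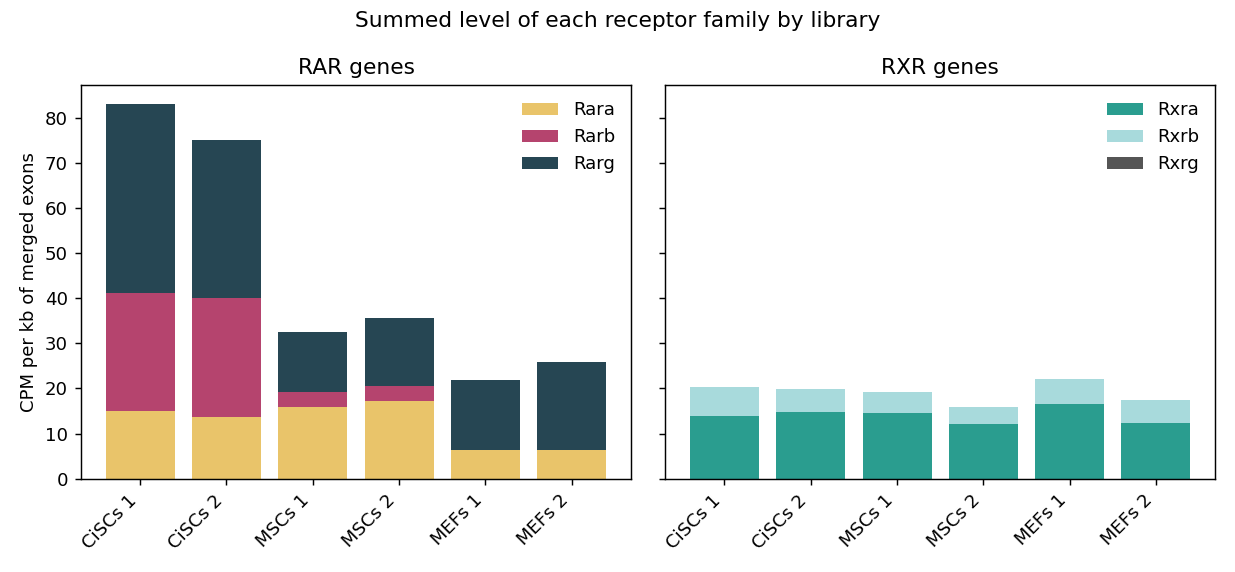
Stacked level of the RAR genes (left) and the RXR genes (right) in each library, in CPM per kb of merged exons. The RAR stacks are 83.1 and 75.1 in CiSCs and at most 35.6 elsewhere, and the RXR stacks lie between 15.96 and 21.98 in all libraries.

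Summed on that scale, the RAR genes reached 83.1 and 75.1 CPM per kb in the CiSC libraries, 32.6 and 35.6 in the MSC libraries and 21.9 and 25.9 in the MEF libraries. The RXR sum was 20.36 and 19.97 in CiSCs, 19.18 and 15.96 in MSCs and 21.98 and 17.39 in MEFs. The ratio of RAR to RXR was thus 4.08 and 3.76 in CiSCs, 1.70 and 2.23 in MSCs and 0.997 and 1.49 in MEFs, with no overlap between groups. These sums were not tested.

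The make-up of the RAR reads also differed between the groups. Rarb contributed 31.6% (Wilson 95% interval 30.5 to 32.7) and 35.0% (33.9 to 36.2) of the reads on the 3 RAR genes in the CiSC libraries. In the MSC libraries its share was 9.52% (8.43 to 10.7) and 8.66% (7.66 to 9.79). In the MEF libraries it was 0.116% (0.0319 to 0.423) and 0.254% (0.109 to 0.593). Rara contributed most in MSCs, at 51.6% (49.6 to 53.5) and 51.2% (49.3 to 53.1), against 19.4% (18.5 to 20.4) and 19.6% (18.7 to 20.6) in CiSCs and 31.3% (29.1 to 33.5) and 26.8% (24.9 to 28.8) in MEFs. Rarg held the largest share in CiSCs and in MEFs. These shares are not corrected for gene length, and the intervals cover counting error only.

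Genes known to respond to retinoic acid were read from a list of 16, which leaves out the receptors themselves. Of these, 13 could be tested. In CiSCs against MEFs 10 were higher and 3 did not pass, with a median log2 fold change of 2.34 (2.36 with Lrat at its lower bound and without Stra8, which had 0 reads in both groups) against -0.00224 over all tested genes. For MSCs against MEFs 9 were higher and 1, Hoxb4, was lower (median 1.55, against 0.0102 over all). In CiSCs against MSCs 8 were higher and 2 lower (median 0.976, against -0.0251), or 6 in all without the second MSC library. Of all tested genes, 19.6% were higher and 21.3% lower in CiSCs against MEFs. The shares were 22.5% and 20% in MSCs against MEFs, and 17.7% and 25.1% in CiSCs against MSCs. Genes such as Lrat, with no reads in MEFs, passed the count filter through the other groups alone, so the filter itself favours higher calls.

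Of the listed targets, Cyp26b1, Stra6 and Lrat were far apart between groups. Cyp26b1, another retinoic acid-degrading enzyme, had 1153 and 1116 CPM in CiSCs, 15.9 and 13.9 CPM in MSCs and 7.33 and 5.56 CPM in MEFs. Its fitted fold was 176 in CiSCs against MEFs (adjusted p = 1.49e-05, edgeR) and 76.2 in CiSCs against MSCs (adjusted p = 8.92e-06, edgeR). Stra6, the membrane receptor that takes up retinol, was at 507 and 473 CPM in CiSCs, 7.497 and 9.83 CPM in MSCs and 0.405 and 0.416 CPM in MEFs. Lrat, which esterifies retinol for storage, had 14.7 and 15.0 CPM in CiSCs and 2.92 and 3.15 CPM in MSCs and 0 reads in MEFs, so CiSCs were at least 193-fold and MSCs at least 39.5-fold higher (against 3 reads over the group). In all 3 genes CiSCs were highest, MSCs came next and MEFs were lowest, which is also the order of Rarb. Dhrs3, which reduces retinal back to retinol, followed the same order, with 733 and 667 CPM in CiSCs, 380 and 403 CPM in MSCs and 96.8 and 171 CPM in MEFs.

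Not every listed target shared that order. Tgm2, a transglutaminase, had 586 and 500 CPM in CiSCs, 714 and 686 CPM in MSCs and 97.6 and 117 CPM in MEFs, and CiSCs against MSCs did not pass (adjusted p = 0.101, edgeR). The homeobox gene Meis2 was at 248 and 223 CPM in CiSCs, against 18.2 and 17.3 CPM in MSCs and 22.5 and 21.5 CPM in MEFs. Hoxb4 had 50.1 and 50.2 CPM in CiSCs, 3.88 and 4.56 CPM in MSCs and 14.9 and 16.8 CPM in MEFs, so that it was lower in MSCs than in MEFs (log2 fold change -1.91 ± 0.16, adjusted p = 0.000211, edgeR). Hoxd4 had 25.2 and 24.9 CPM in CiSCs, 17.7 and 17.6 CPM in MSCs and 8.95 and 9.56 CPM in MEFs, the order of Rarb. Meis1 also kept that order, at 35.1 and 31.3 CPM in CiSCs, 28.9 and 27.3 in MSCs and 24.8 and 18.6 in MEFs. Hoxd4 and Meis1 were higher in CiSCs against MEFs by 2.71-fold and 1.53-fold (adjusted p = 0.000417 and 0.0311, edgeR). Meis1 passed in no comparison with MSCs. Crabp2, a carrier that delivers retinoic acid to RARs, had 2.86 and 2.11 CPM in CiSCs, 4.84 and 7.01 CPM in MSCs and 1.27 and 1.87 CPM in MEFs, and CiSCs against MEFs did not pass (adjusted p = 0.175, edgeR). Stra8, a germ cell gene that retinoic acid induces at meiosis, was listed at 0 reads in CiSCs and MEFs and had 0.744 and 1.09 CPM in MSCs. In those MSC libraries the germ cell markers Ddx4, Dazl and Sycp3 were at 5.64 and 3.91, 1.489 and 1.901, and 0.4785 and 0.7062 CPM. Zbtb16 was at 25.15 and 19.23 CPM there, 2.338 and 1.965 CPM in CiSCs and 3.338 and 3.535 CPM in MEFs. Prm1 had 2 reads over both MSC libraries and Tnp1 had 0. The part of germ cells in the Stra8 level was not tested. Cyp26a1, Hoxb1 and Cdx1 were too low to be tested. Cyp26a1, whose window holds the repeat shown beside that of Rarb, had 20 reads in CiSCs, 9 in MSCs and 3 in MEFs, a ratio of 6.14 in CiSCs against MEFs with an exact binomial interval from 1.82 to 32.3.

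**Figure D4:**
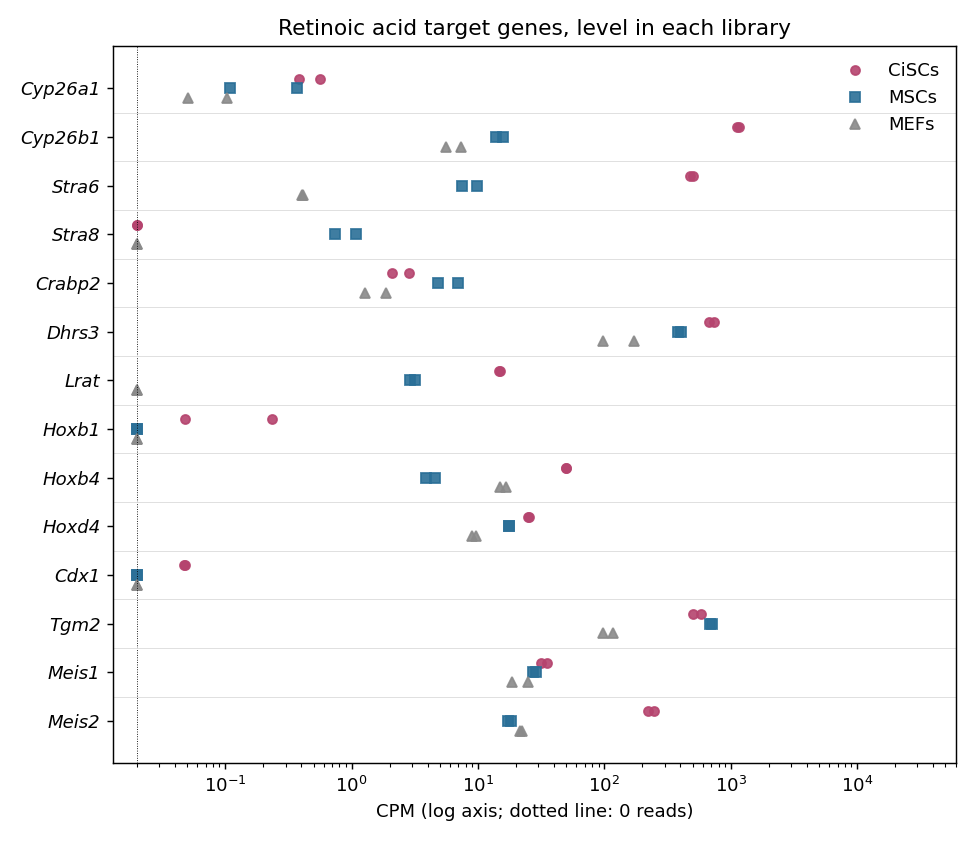
Level of 14 of the listed retinoic acid target genes in each library, in CPM on a log axis, with libraries at 0 reads set on the dotted line. Cyp26b1, Stra6, Dhrs3 and Lrat run from CiSCs over MSCs to MEFs, whereas Hoxb4 is lowest in MSCs.

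The supply of ligand was read from 11 genes of synthesis, transport and delivery, all tested. In CiSCs against MEFs 2 were higher and 5 lower, where 19.6% of all tested genes were higher and 21.3% lower, with a median log2 fold change of -1.27 against -0.00224 over all. In CiSCs against MSCs 1 was higher and 7 lower (all genes 17.7% and 25.1%), with a median of -2.95 against -0.0251. MSCs against MEFs gave 6 higher and 2 lower (all genes 22.5% and 20%), with a median of 3.32 against 0.0102. Aldh1a1 and Aldh1a2, retinal dehydrogenases that make retinoic acid, were abundant in MSCs and near 0 in the other groups. Aldh1a1 had 0.716 and 0.982 CPM in CiSCs, 1725 and 1545 CPM in MSCs and 1.01 and 0.884 CPM in MEFs. Aldh1a2 had 3 reads over both CiSC libraries, 525 and 487 CPM in MSCs and 0.101 and 0.260 CPM in MEFs. Both were below 1 CPM in CiSCs, where Rarb was highest. The 2 supply genes that were higher in CiSCs against MEFs, named after their values were seen, were Aldh1a3, the other retinal dehydrogenase of the list, and Rdh10, which oxidises retinol to retinal. Aldh1a3 had 0.763 and 1.03 CPM in CiSCs, 6.27 and 7.66 CPM in MSCs and 0.0506 and 0.0520 CPM in MEFs (CiSCs against MEFs, adjusted p = 0.00153, edgeR). Its ratio of 38 reads in CiSCs to 2 in MEFs, scaled for library size, was 17.5 with an exact binomial interval from 4.52 to 150. Rdh10 had 13.6 and 14.9 CPM in CiSCs, 10.4 and 12.6 CPM in MSCs and 9.51 and 5.77 CPM in MEFs, 1.86-fold higher in CiSCs against MEFs (adjusted p = 0.0355, edgeR). Adh1, an alcohol dehydrogenase that can oxidise retinol, had 5.82 and 5.33 CPM in CiSCs, 136 and 134 CPM in MSCs and 12.3 and 14.7 CPM in MEFs. Crabp1, a carrier thought to restrain retinoic acid in the cytoplasm, had 4.44 and 3.98 CPM in CiSCs, 0.213 and 0.380 CPM in MSCs and 859 and 1129 CPM in MEFs (CiSCs against MEFs, log2 fold change -7.88 ± 0.25, adjusted p = 1.49e-05, edgeR). It was high in MEFs, where Rarb was near 0. Links between the levels of these supply genes and that of Rarb were not tested. Markers of Leydig, germ and endothelial cells also had their highest sums in MSCs. Their summed level there was 1360 to 1390 CPM for 7 Leydig genes, of which 4 averaged 10 CPM or more. It was 25.9 to 32.8 CPM for 6 germ cell genes, of which 1, Zbtb16, did. The sum of 6 endothelial genes was 12.3 to 14.5 CPM in CiSCs, 92.6 to 97.1 CPM in MSCs and 10.7 to 12.1 CPM in MEFs, and all 6 were higher in MSCs against MEFs. In CiSCs against MSCs 4 were lower, Tek did not pass and Emcn was higher, with means of 10.5 CPM in CiSCs and 5.27 CPM in MSCs. Of 5 peritubular myoid genes (1160 to 1270 CPM in CiSCs, 2530 to 2680 CPM in MSCs and 2230 to 2670 CPM in MEFs, the last groups overlapping), Myh11 and Des were higher in MSCs against MEFs. Acta2, Cnn1 and Actg2 did not pass there, with log2 fold changes of 0.04, -0.25 and -0.30. The part of these cells in the levels of the supply genes was not tested.

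The other receptors that pair with RXRs moved in both directions. Of 13 listed, 11 were tested, of which 4 were higher and 4 lower in CiSCs against MEFs, 4 higher and 3 lower in MSCs against MEFs, and 4 higher and 6 lower in CiSCs against MSCs. The shares of all tested genes are those given for the supply genes. The medians of the partners were 0.00 (-0.122 without Nr1h4, at 0 reads in both groups), 0.24 and -1.55. The thyroid hormone receptor genes were higher in both CiSCs and MSCs. Thra had 104.5 and 106 CPM in CiSCs, 70.1 and 75.0 CPM in MSCs and 36.9 and 44.5 CPM in MEFs. Thrb had 6.11 and 4.96 CPM in CiSCs, 22.3 and 19.99 CPM in MSCs and 0.202 and 0.312 CPM in MEFs. The vitamin D receptor gene Vdr had 6.63 and 6.18 CPM in CiSCs, 26.2 and 26.9 CPM in MSCs and 18.5 and 21.8 CPM in MEFs. Nr4a1, an orphan receptor of the immediate early response, had 31.3 and 28.7 CPM in CiSCs, 99.1 and 84.0 CPM in MSCs and 244.5 and 249 CPM in MEFs. Its relative Nr4a2 had 7.01 and 7.11 CPM in CiSCs, 2.45 and 1.79 CPM in MSCs and 28.02 and 29.1 CPM in MEFs. Nr1h2, which encodes the ubiquitous liver X receptor, passed in no comparison (adjusted p = 0.0972 in CiSCs against MEFs, 0.727 in MSCs against MEFs and 0.164 in CiSCs against MSCs, edgeR).

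Orphan receptors of the COUP-TF and TR types bind the same direct repeats and can compete with RAR and RXR pairs. Of 5 such genes, 4 were higher in CiSCs against MEFs (2 without the first or the second CiSC library), 2 were higher in MSCs against MEFs, and 3 were higher and 1 lower in CiSCs against MSCs. Over all tested genes 19.6%, 22.5% and 17.7% were higher in these comparisons, and with 5 genes the counts say little against those shares. For CiSCs against MSCs 2 passed in all without the first CiSC library or without either MSC library. The medians of the 5 genes were 1.22, 0.942 and 0.633. Nr2f1, which encodes COUP-TF1, had 21.3 and 20.6 CPM in CiSCs, 5.58 and 5.43 CPM in MSCs and 0.658 and 0.780 CPM in MEFs, the order seen for Rarb. Nr2f2, which encodes COUP-TF2, was instead highest in MSCs, with 54.6 and 48.5 CPM in CiSCs, 180 and 167 CPM in MSCs and 24.6 and 19.8 CPM in MEFs.

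**Figure D5:**
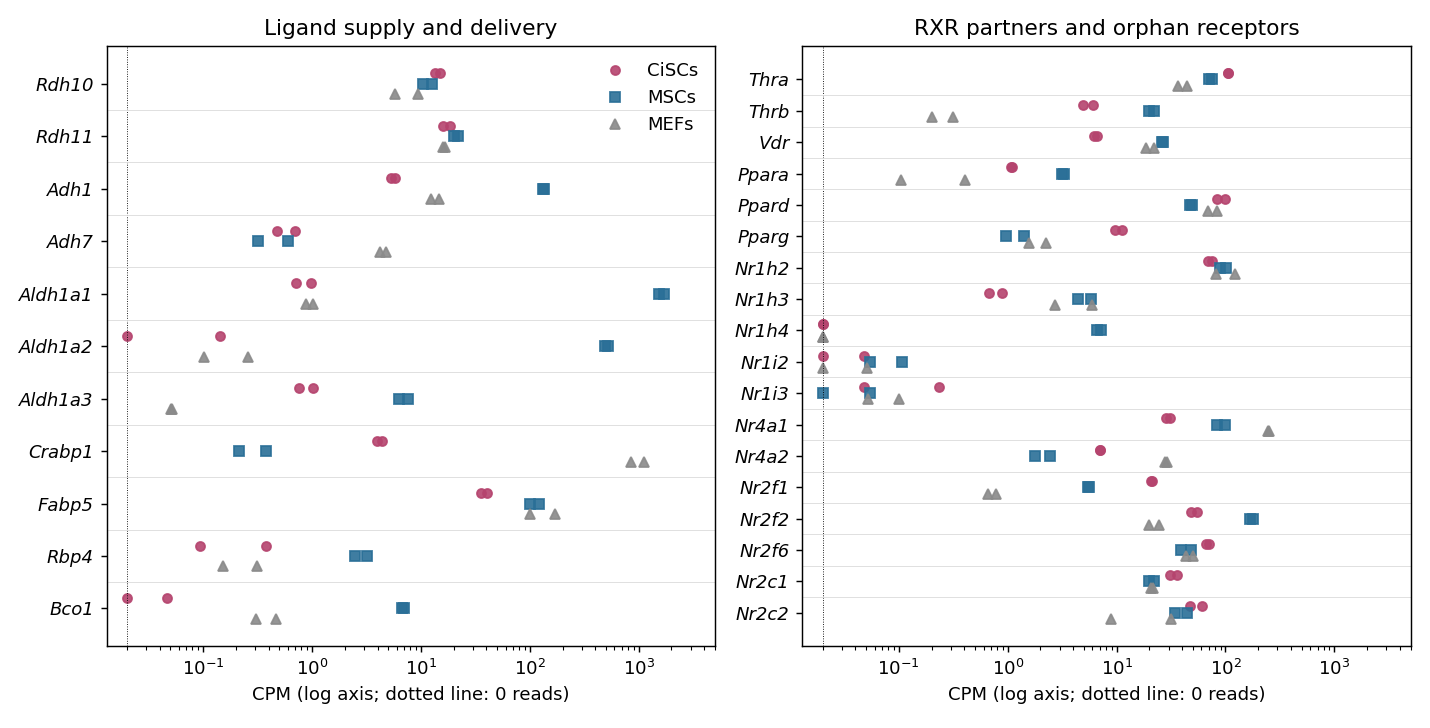
Level of the ligand supply genes (left) and of the RXR partner and orphan receptor genes (right) in each library, in CPM on a log axis, with libraries at 0 reads on the dotted line. Aldh1a1 and Aldh1a2 are at 487 CPM or more in MSCs and near or below 1 CPM in CiSCs and MEFs.

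The genes most like each receptor gene were those with the smallest root mean square difference of log2 CPM over the 6 libraries, each gene centred on its own mean. Rarb was most like Kng2, which encodes a kininogen (difference 0.356, means of 65.3 CPM in CiSCs, 11.4 CPM in MSCs and 0.154 CPM in MEFs), Spon2, which encodes a matrix protein (0.387), and Lrat (0.616). Rara was most like the heparan sulphate sulphatase gene Sulf2 (0.0577), Gm14322 (0.0850) and the smoothelin gene Smtn (0.0966). Rarg was most like the ephrin gene Efna4 (0.0596), the sodium channel gene Scnn1a (0.0736) and the Polycomb gene Pcgf2 (0.0772). Rxra was most like Nkap (0.0197), Ids (0.0233) and Zfp84 (0.0422). Rxrb was most like Nqo1 (0.0616), Gtf2h2 (0.0867) and Ppil4 (0.0881). With 3 groups of 2 libraries such likeness is a description of the group means, and genes with small changes, such as Rxra, have close neighbours by construction.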

How the data were processed

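Total RNA of 6 libraries (2 CiSCs, 2 MSCs, 2 MEFs) was sequenced on the BGISEQ-500 platform, per the labels. The authors deposited a read count per gene under Entrez Gene identifiers, which the fractional values led to be treated here like expected counts (estimated, not normalised). HISAT and the build mm9 are named in the submitters' processing notes. The counting program, annotation, filters and strand are not given in the sources used here. In each library 42.0% to 43.8% of the values were fractional (more than 1e-09 from a whole number), which some normalised values would also show. Of 20007 identifiers, 18891 matched a symbol in a RefSeq table of GRCm38. Promoter windows are from RefSeq (GRCm38.p6) and exon lengths from GENCODE M21, neither being the build of the alignment.

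After rounding, edgeR 4.0.16 under R 4.3.3 was applied to the counts (filterByExpr, TMM scaling, quasi-likelihood fit with 1 mean per group to all 6 libraries, 3 residual degrees of freedom, two-sided). The procedure was also run on simulated counts, with few genes changed and only in CiSCs. That setting differs from the data, so it does not show the error rate here. Log2 CPM used a prior count of 2. Intervals of log2 fold changes used the moderated degrees of freedom. A count of 0 over a group was taken as at most 3 reads.

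The receptor genes and the lists were chosen with earlier results of these data known. All 6 receptor genes are described, and any listed target gene could be named. Some genes of the lists are counted but not reported singly here. From every other list, the 3 genes with the highest mean CPM and the 2 called genes with the smallest adjusted p in each comparison could be named, along with the 3 genes nearest in pattern to each receptor gene. Top2b was added for its overlap and markers of other cell types for their place beside results. Alternatives were each library left out, a block for the replicate number, fits of only the groups compared, median-ratio size factors, DESeq2 1.42.0, all genes unfiltered, genes with 5 CPM or more in 2 or more libraries, counts not rounded and an adjusted p under 0.01.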

Additional observations from a re-analysis of the deposited data

How the results depend on the processing

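Under 14 alternatives, 3 members passed in CiSCs against MEFs every time, 2 to 3 in MSCs against MEFs and 2 to 3 in CiSCs against MSCs. The log2 fold change ranged from 8.58 to 9.92 for Rarb, from 1.08 to 1.19 for Rara and from 0.957 to 1.31 for Rarg in CiSCs against MEFs, always past 0.05. Sign changes concerned only Rxra and Rxrb, which passed in neither setting. With each library left out in turn, Rxra ran from -0.206 (without the second MEF library) to 0.181 (without the first) in CiSCs against MEFs, and was 0.0154 without the first CiSC library. Rxrb in that comparison ran from -0.0297 (without the first CiSC library) to 0.286 (without the second). For MSCs against MEFs, Rxra ran from -0.307 (without the second MEF library) to 0.0768 (without the first), and was 0.0164 without the second MSC library. For CiSCs against MSCs it ran from -0.0284 (without the second MSC library) to 0.239 (without the first). The cause was not tested. Same-numbered libraries share nothing but that number in the labels. The correlation of replicate differences was -0.215, 0.138 and -0.129 in CiSCs and MEFs, MSCs and MEFs, and CiSCs and MSCs. With the replicate number as a block, all calls of members held, Rxra was 0.00296 in CiSCs against MEFs, and 5468, 5672 and 5814 genes passed, in place of 6250, 6497 and 6534, in CiSCs against MEFs, in MSCs against MEFs and in CiSCs against MSCs. Leaving out libraries gave 3395 to 9487, 3516 to 9745 and 3910 to 9369 genes in the same order, and an adjusted p under 0.01 gave 3774, 4009 and 4324. The highest counts were those without the first MEF library (the second in CiSCs against MSCs), and the lowest those without the second CiSC library in CiSCs against MEFs and without the second MSC library in the other comparisons. Over all alternatives, called corepressors ranged from 1 to 7, 2 to 7 and 1 to 6 in that order, coactivators from 1 to 7, 2 to 7 and 4 to 5, orphan receptors from 2 to 5, 2 to 3 and 2 to 5, and targets from 9 to 11, 8 to 11 and 6 to 13. In MEFs the depth leaves 7 reads for Rarb, so counting error alone leaves the size of its change against MEFs open over the interval given. That interval leaves out the spread between libraries.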

Other observations

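The cofactors through which the receptors act were read from lists of 9 corepressor and 9 coactivator genes. Of 9 corepressor genes, 4 were higher in CiSCs against MEFs, with a median log2 fold change of 0.425. There 40.9% of all tested genes passed in either direction, 19.6% higher and 21.3% lower. For MSCs against MEFs 3 corepressor genes were higher and 1 lower (median 0.254, with 42.5% of all tested genes passing), and in CiSCs against MSCs 1 was higher (median 0.171, with 42.8% passing). With 9 genes, these counts say little against such shares. Nrip1, a corepressor that binds ligand-bound receptors and is itself induced by retinoic acid, had 55.0 and 64.2 CPM in CiSCs, 51.6 and 45.9 CPM in MSCs and 21.5 and 12.7 CPM in MEFs, and rose in both CiSCs and MSCs against MEFs (adjusted p = 0.00217 and 0.00418, edgeR). The number of corepressors that passed in CiSCs against MEFs was 7 without the first MEF library and 1 without either CiSC library.

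Of 9 coactivator genes, 4 were higher in CiSCs against MEFs (median 0.62, or 7 passing without the first MEF library and 1 without either CiSC library). For MSCs against MEFs 2 were higher and 1 lower (median 0.418, with 7 passing without the first MEF library and 5 without the second), and in CiSCs against MSCs 3 were higher and 1 lower (median 0.138). Over all tested genes 40.9%, 42.5% and 42.8% passed in these comparisons, and with 9 genes the counts say little against those shares. The medians over all tested genes were -0.00224, 0.0102 and -0.0251. Ncoa3, a p160 coactivator, had 90.9 and 95.8 CPM in CiSCs, 44.9 and 42.4 CPM in MSCs and 57.5 and 49.1 CPM in MEFs. Carm1, an arginine methyltransferase that joins p160 coactivators, had 198 and 187 CPM in CiSCs, 106 and 109 CPM in MSCs and 121 and 107 CPM in MEFs. Kat2b, an acetyltransferase, was instead highest in MSCs, with 34.7 and 37.2 CPM in CiSCs, 114 and 105 CPM in MSCs and 36.4 and 31.7 CPM in MEFs.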
